A study of Caenorhabditis elegans with 40 samples.

Results

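The superoxide dismutase and catalase genes of *C. elegans* were described in RNA-seq libraries of entire L3 larvae in which condensin, cohesin or a factor that loads condensin on the X chromosome had been inactivated. The 8 genes, *sod-1* to *sod-5* and *ctl-1* to *ctl-3*, were taken by symbol from the 19934 genes to which the deposited transcripts were assigned. All 8 were found. Every strain carried the transgene ubsSi20, in which the heat-inducible hsp-16.2 promoter drives the protease TEV. Synchronised L1 larvae were kept for 3 h at 22 °C, then had a heat shock of 30 min at 34 °C, and were collected 19 h later. The controls were therefore heat-shocked animals too.

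Each cleavage strain carried a TEV site with a FLAG tag in 1 or 2 kleisins, the subunits that close the ring of a condensin or cohesin complex. Batch 1 held DPY-26 cleavage (dpy-26(ubs4)), KLE-2 cleavage (kle-2(ubs14)), SCC-1 cleavage (scc-1(ubs19)) and the TEV control, with 4 samples each. Batch 2 held cleavage of SCC-1 together with COH-1 (scc-1(ubs19) with coh-1(ubs26)), COH-1 cleavage (coh-1(ubs26)) and the TEV control, with 3 samples each. In batch 3, 3 samples each came from DPY-26 cleavage with SDC-3 degradation, from the TEV TIR1 auxin control and from the TEV auxin control, and all were kept on 1 mM auxin. In batch 4, 3 samples each came from SDC-3 degradation (1 mM auxin) and from the SDC-3 control, which had the same genotype and ethanol in place of auxin. The degron strains carried sdc-3(ubs20), which adds an auxin-inducible degron to SDC-3, and xeSi376, in which the eft-3 promoter drives the plant receptor TIR1. The TEV TIR1 auxin control carried xeSi376 without the degron. The protease and the degron both act on protein and not on mRNA. The series describes its replicates as biological.

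Superoxide dismutases convert superoxide, a by-product of respiration and of oxidases, to hydrogen peroxide and oxygen. Catalases, which carry heme, then break the peroxide down to water and oxygen, many of them in peroxisomes. *C. elegans* has separate genes for the compartments. *sod-1* encodes the main cytosolic copper/zinc enzyme, *sod-5* a minor cytosolic copper/zinc enzyme, *sod-4* the extracellular or membrane-bound copper/zinc enzyme, and *sod-2* and *sod-3* the mitochondrial manganese enzymes. *sod-3* is a well-known target of the insulin-regulated factor DAF-16 and is induced by stress and in dauer larvae. *ctl-1* encodes a cytosolic and *ctl-2* a peroxisomal catalase, and *ctl-3* is a further catalase gene of the same cluster.

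The 8 genes lie on 4 chromosomes of the WBcel235 assembly. *sod-1* (WBGene00004930) is at chr II:6972706-6973887 on the minus strand, *sod-5* (WBGene00007036) at chr II:4417633-4419130 on the plus strand, and *sod-4* (WBGene00004933) at chr III:9496884-9500375 on the minus strand. *sod-2* (WBGene00004931) is at chr I:8434550-8435807 on the plus strand. *sod-3* (WBGene00004932), at chr X:17092753-17094306 on the plus strand, is the only X-linked gene of the 8. *ctl-2* (WBGene00000831, 14299556 to 14302027), *ctl-1* (WBGene00000830, 14303568 to 14306260) and *ctl-3* (WBGene00013220, 14307798 to 14310779) stand in tandem on the minus strand of chromosome II. Their sequences are related, so the split of reads between them rests on Salmon's model, and the sum of the 3 was tested as well. The exons of *sod-4* overlap those of *ctr-9* on the other strand by 175 bases, those of *ctl-2* overlap Y54G11A.7 by 65, those of *sod-3* overlap C08A9.3 by 65 and *lido-1* by 24, and those of *sod-2* overlap *dpt-1* by 21. The library kit keeps the strand, but the strand setting of the quantification is not given in the sources used here.

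The 40 libraries held 20460404 to 88427247 assigned reads (median 38087560). The label whole body was checked against markers of intestine, epidermis, body muscle, neurons, germline and pharynx, and each list was present in every group. The summed TPM ranged from 2115 to 5433 for intestine (8 of the 9 listed genes were found) and from 43.3 to 104 for germline over the 40 libraries, whereas adult or late larval markers summed to at most 13.7. The mRNA of the cleaved kleisin was lower than in the control after DPY-26 cleavage (log2 fold change -0.69) and KLE-2 cleavage (-0.68), and *scc-1* was lower after cleavage of SCC-1 with COH-1 (-0.71), with edgeR adjusted p of 0.00114, 0.0327 and 0.0187. The mRNA of the cleaved kleisin was not called after SCC-1 cleavage or after COH-1 cleavage, nor was *coh-1* after cleavage of SCC-1 with COH-1. Since TEV cuts the protein, mRNA levels are no check of the cleavage. In entire animals, a change in the number of cells of a type cannot be told apart from a change in RNA per cell.

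Levels of different genes were compared per length, in TPM. *sod-1* had the highest level in all 12 groups, at 167 to 323 TPM over the 40 samples (median 210), followed by *sod-2* at 74.0 to 141 TPM (median 120). *ctl-2* ranged from 31.3 to 117 TPM (median 61.4) and *ctl-1* from 31 to 90.9 TPM (median 47.8). *sod-4* followed at 18.1 to 58.9 TPM (median 32.0), *sod-3* at 2.19 to 27.3 TPM (median 5.21), *ctl-3* at 2.00 to 5.62 TPM (median 2.72) and *sod-5* at 0 to 0.821 TPM (median 0.174). The cytosolic and the constitutive mitochondrial dismutase thus stood above all catalases, and the order of the 8 group means was the same in 11 of 12 groups. The exception was DPY-26 cleavage, where *sod-4* (49.8 ± 7.26 TPM, SD, n = 4) stood above *ctl-2* (40.4 ± 8.59 TPM) and *ctl-1* (39.1 ± 7.51 TPM), with gaps of the size of these SDs.

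**Figure D1:**
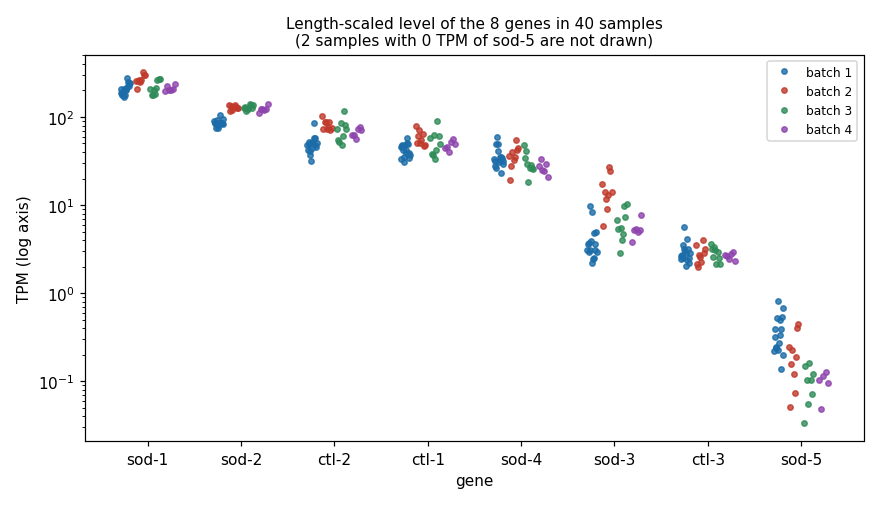
TPM, a level scaled by transcript length and library total, on a log axis for the 8 genes (x axis). Each point is 1 of 40 samples and the colours are the 4 batches. *sod-1* lies at 167 to 323 TPM, *sod-5* at 0.821 TPM or less, and *sod-3* spreads from 2.19 to 27.3 TPM.

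Between groups, levels were compared in CPM scaled with TMM factors over all samples. *sod-2* varied least, with a highest group mean 1.35 times the lowest, and *ctl-1* (1.68 times), *ctl-2* (1.67 times) and *sod-1* (1.80 times) were close to it. *ctl-3* (2.09 times) and *sod-4* (2.24 times) varied more, and *sod-3* most among the genes above 1 CPM (4.50 times). When the 12 group means of a gene were put in order, few neighbours differed by more than the larger of their SDs. This was so for 3 of 11 gaps of *sod-1*, 2 of *sod-5*, 1 each of *sod-3*, *sod-4* and *ctl-1*, and 0 of *sod-2*, *ctl-2* and *ctl-3*. In the comparisons below, groups do not overlap where all samples of the higher group lie above all samples of the lower. How often this held over all genes was not counted, so it is a description and no test.

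**Figure D2:**
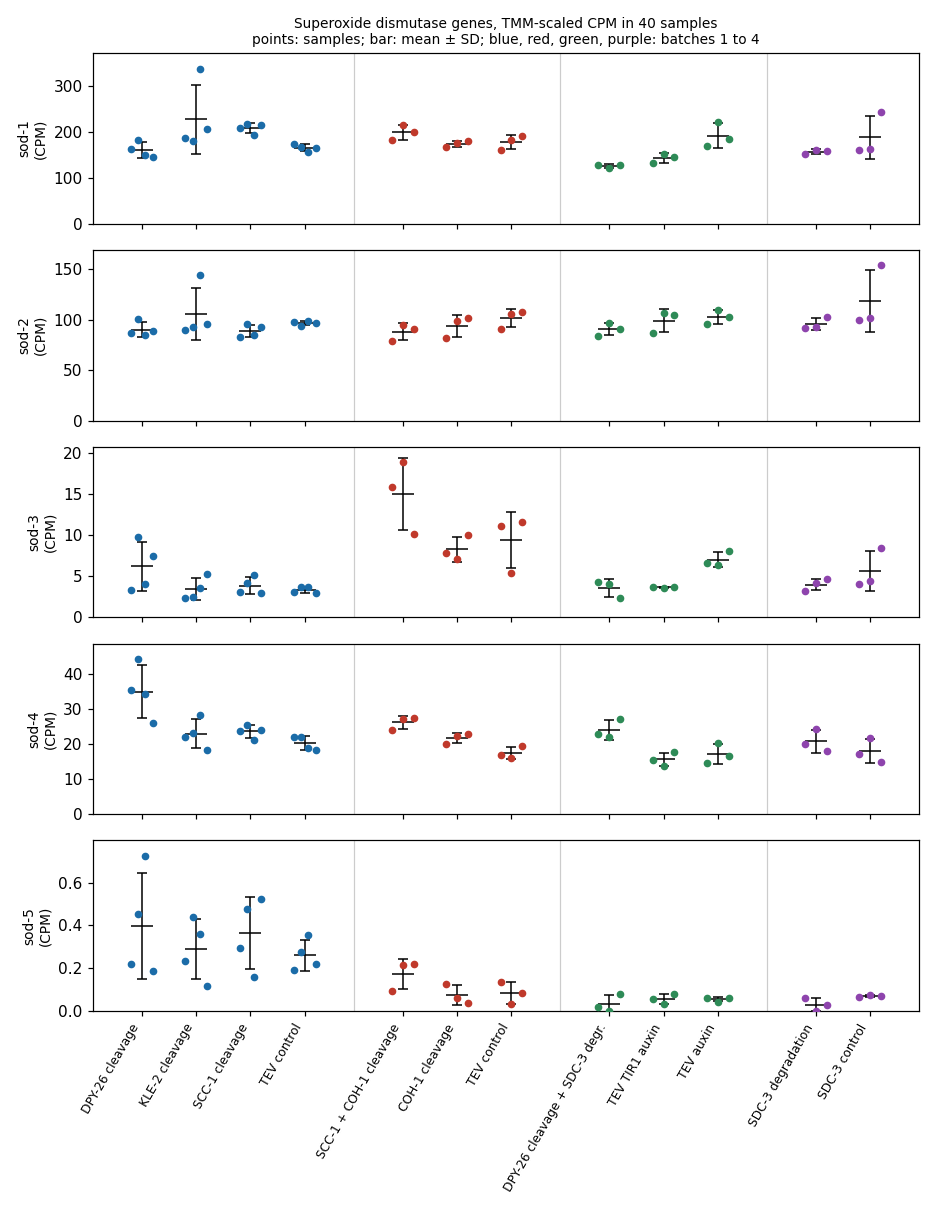
CPM scaled with TMM factors of the 5 superoxide dismutase genes (1 panel each, axes from 0) in 12 groups, with points for samples and bars for the mean ± SD. *sod-4* stands highest after DPY-26 cleavage (26 to 44.4 CPM), *sod-3* is highest in batch 2, and KLE-2 cleavage replicate 3 lies apart in *sod-1* (337 CPM) and *sod-2* (145 CPM).

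After DPY-26 cleavage, which opens the condensin I and the related complex of X-chromosome dosage compensation, 1 of the 8 genes was called by edgeR: *sod-4* rose 1.71-fold. DESeq2 called 3, adding *sod-3* (adjusted p = 0.0195) and *ctl-3* (0.0303), beside 31.7% of all genes called by DESeq2. The libraries of DPY-26 cleavage held 35.4, 44.4, 34.4 and 26 CPM of *sod-4*, against 22.1, 22.0, 19.0 and 18.3 CPM in the TEV control. All 4 cleavage samples were above all 4 control samples. The log2 fold change was 0.78 (SE 0.15, adjusted p = 0.0068, quasi-likelihood F test of edgeR, Benjamini-Hochberg over 14340 genes). Of all genes tested in this comparison, 27.5% were called, and the share among the 8 genes was below that. *sod-4* is autosomal, and only 5.96% of autosomal genes were called higher, against 67.7% of X-linked genes. *ctr-9*, the gene on the other strand of its end, was lower (log2 fold change -0.24, adjusted p = 0.0324).

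The other 7 genes did not pass the edgeR test after DPY-26 cleavage. *sod-3* had 3.38, 9.74, 4.10 and 7.52 CPM after DPY-26 cleavage, against 3.05, 3.64, 3.70 and 2.91 CPM in the TEV control. Replicates 2 and 4 stood well above the control and replicates 1 and 3 within or just above its range. The log2 fold change was 0.89 (SE 0.31, adjusted p = 0.0637, 0.0263 without DPY-26 cleavage replicate 1), beside a median of 0.61 over the X-linked genes and -0.07 over the autosomal genes. *lido-1*, whose exons overlap the end of *sod-3* on the other strand, was higher (log2 fold change 0.68, adjusted p = 0.0109). *ctl-3* had 10.6, 16.5, 9.11 and 8.18 CPM after DPY-26 cleavage and 7.42, 7.16, 8.0 and 7.41 CPM in the TEV control. The groups did not overlap, and the log2 fold change was 0.56 (SE 0.20, adjusted p = 0.0674, 0.0299 without DPY-26 cleavage replicate 4). *ctl-2*, the peroxisomal catalase, had a log2 fold change of -0.29 (adjusted p = 0.129, 0.0378 without the same replicate 4), and those of *sod-1*, *sod-2* and *ctl-1* lay between -0.17 and -0.05. The median over the 8 genes was 0.25, beside -0.01 over all genes. *col-19*, a collagen of the adult cuticle, was at 0.359 to 1.14 CPM after DPY-26 cleavage and at 0 to 0.106 CPM in the TEV control. It was the only call among the 3 tested of 6 adult or late larval markers, and the 6 summed to 3.46 to 5.85 TPM after DPY-26 cleavage and 4.81 to 6.77 TPM in the TEV control. Of 6 body muscle markers 3 were called lower, with sums of 1023 to 1353 TPM after DPY-26 cleavage and 1192 to 1389 TPM in the TEV control. Of 8 intestinal markers 1 was called higher and 2 lower (2188 to 2865 TPM after DPY-26 cleavage and 2255 to 2466 TPM in the TEV control), of 7 epidermal markers tested 1 higher and 1 lower, and of 8 neuronal markers 1 lower. The part of these markers in the results was not tested.

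DPY-26 cleavage was also studied together with SDC-3 degradation, and there too *sod-4* alone was called. It had 22.9, 22.2 and 27.3 CPM after DPY-26 cleavage with SDC-3 degradation, against 15.4, 13.8 and 17.7 CPM in the TEV TIR1 auxin control. The groups did not overlap, and *sod-4* rose 1.55-fold (log2 fold change 0.63, SE 0.13, adjusted p = 0.0204). The share called among all 13992 genes was 14.7%, and it was 49.6% called higher on the X chromosome and 4.15% on the autosomes. The adjusted p was 0.0695 without DPY-26 cleavage with SDC-3 degradation replicate 3 and 0.0717 without TEV TIR1 auxin replicate 2. *ctr-9* differed by -0.11 on the log2 scale (adjusted p = 0.434). *col-19* was at 0.439 to 0.773 CPM after DPY-26 cleavage with SDC-3 degradation and at 0.0338 to 0.119 CPM in its control, while *lin-29*, of the same list of adult or late larval markers, was lower (log2 fold change -0.74, adjusted p = 0.0321). The 6 genes of that list, of which 3 were tested, summed to 2.98 to 5.43 TPM after DPY-26 cleavage with SDC-3 degradation and 4.02 to 8.98 TPM in the control. The part of these markers in the result was not tested.

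X-linked *sod-3* was not called in this comparison. It had 4.25, 4.09 and 2.31 CPM after DPY-26 cleavage with SDC-3 degradation and 3.68, 3.58 and 3.64 CPM in the TEV TIR1 auxin control, so the groups overlapped. The X-linked genes had a median log2 fold change of 0.58 here, and 96.1% of them were above the value of *sod-3*. The other tested genes, *sod-1*, *sod-2* and the catalases, lay between -0.19 and 0.00 on the log2 scale, and none passed the test.

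SDC-3 is needed to bring the dosage compensation complex to the X chromosome. After SDC-3 degradation, edgeR called none of the 7 genes tested, beside 1.27% of all 13632 genes. DESeq2 called 2 of the 7 (*ctl-1*, *ctl-2*), beside 11.7% of all genes. At an unadjusted p under 0.05 by edgeR, 2 of the 7 differed, both lower, beside 2997 of the 13632 genes in either direction. *ctl-1* had 109, 103 and 101 CPM after SDC-3 degradation, against 127, 138 and 178 CPM in the SDC-3 control. *ctl-2* had 158, 149 and 147 CPM after SDC-3 degradation, against 187, 196 and 259 CPM in the SDC-3 control. Neither gene's groups overlapped, and both log2 fold changes were close to each other (*ctl-1* -0.49, SE 0.14, adjusted p = 0.113, and *ctl-2* -0.50, SE 0.15, adjusted p = 0.116).

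In CPM, replicate 3 of the SDC-3 control stood apart from the 2 others in several of the genes. It held 242 CPM of *sod-1*, 154 of *sod-2* and 8.47 of *sod-3*, while the other 2 control samples held 160 and 163, 100 and 102, and 4.09 and 4.38 CPM. In TPM it was still the highest control sample for these genes, but the lowest for *ctl-1* and *ctl-2*. Control replicates 1 to 3 held 51.6, 56.5 and 49.5 TPM of *ctl-1* and 72.4, 76.6 and 70.5 TPM of *ctl-2*. After SDC-3 degradation these were 39.9 to 45.5 and 56.3 to 62.9 TPM, without overlap. The TMM factor of replicate 3 scales all genes of this sample in CPM. Without replicate 3, the log2 fold change of *ctl-1* and *ctl-2* was -0.36 and -0.35 (adjusted p = 0.0546 and 0.0513), and that of *sod-3* was -0.10 in place of -0.50. *sod-4* had 20, 24.4 and 18.2 CPM after SDC-3 degradation and 17.2, 21.7 and 15 CPM in the SDC-3 control, with overlapping groups (log2 fold change 0.21, adjusted p = 0.543). *sod-2* (-0.31), *sod-1* (-0.26) and *ctl-3* (-0.24) did not pass the test.

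The effects of DPY-26 cleavage and of SDC-3 degradation, each against its own control, were compared in 1 fit. No gene of the 8 passed the test, DESeq2 called 2 (*sod-3*, *ctl-3*), and 11.6% of 14085 genes were called. At an unadjusted p under 0.05 by edgeR, 3 of the 8 were higher, beside 3899 of all genes in either direction. The effect of DPY-26 cleavage exceeded that of SDC-3 degradation by 1.43 on the log2 scale for *sod-3* (SE 0.49, adjusted p = 0.0774), by 0.84 for *ctl-3* (SE 0.27, adjusted p = 0.0644) and by 0.60 for *sod-4* (SE 0.25, adjusted p = 0.128). *ctl-3* was called without DPY-26 cleavage replicate 2 (adjusted p = 0.0451) and *sod-4* and *ctl-3* without replicate 4 (0.0459 and 0.0295). Without SDC-3 control replicate 3 the value for *sod-3* was 0.98 (adjusted p = 0.179). DPY-26 cleavage and SDC-3 degradation were measured in different batches, and the batch is part of both groups.

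**Figure D3:**
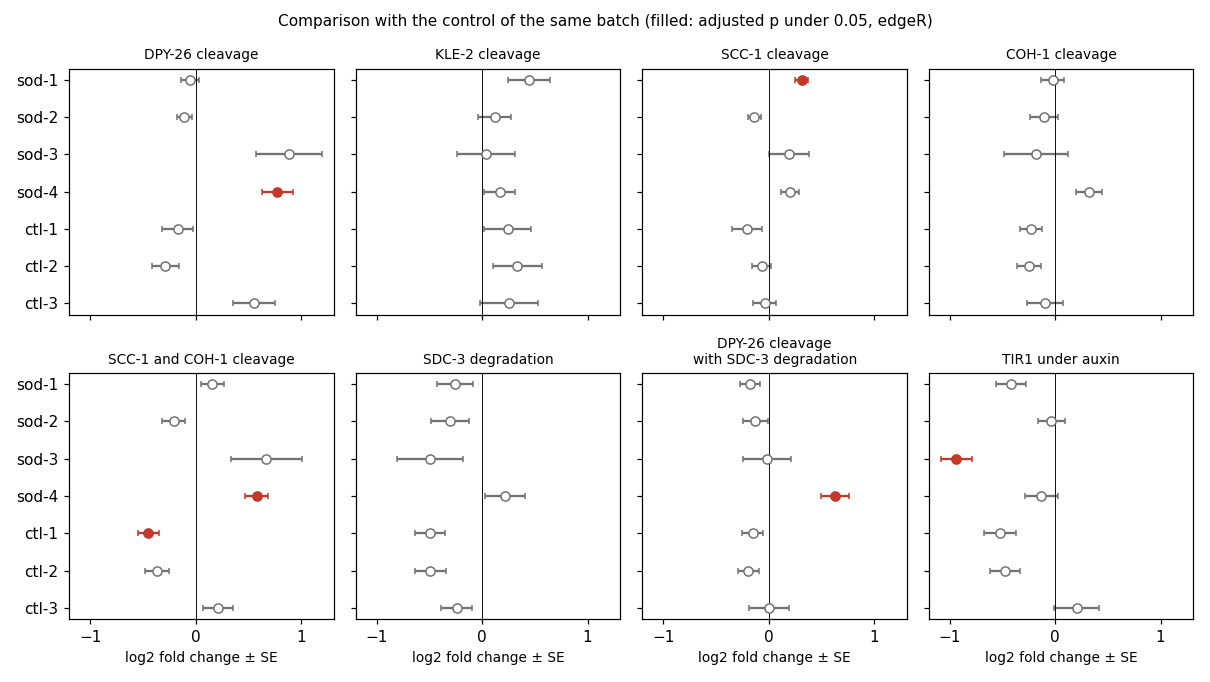
Log2 fold change (x axis) with its standard error for 7 genes (y axis) in 8 comparisons, 1 per panel, each within a batch, and positive values are higher after the inactivation (with TIR1 in the last panel). Filled points passed an adjusted p of 0.05 in edgeR, which are *sod-4* in 3 panels and *sod-1*, *sod-3* and *ctl-1* in 1 panel each.

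Cohesin was opened at SCC-1, at COH-1 or at both. With both kleisins cleaved, *sod-4* rose 1.49-fold and *ctl-1* fell to 0.731 of the TEV control, and 21.3% of 14049 genes were called. *sod-4* had 24.2, 27.1 and 27.4 CPM after cleavage of SCC-1 and COH-1, against 17.0, 16.2 and 19.4 CPM in the TEV control. *ctl-1* had 95.6, 107 and 106 CPM after cleavage of both, against 128, 140 and 152 CPM in the TEV control. The groups did not overlap for either gene. The log2 fold changes were 0.58 for *sod-4* (SE 0.11, adjusted p = 0.0165) and -0.45 for *ctl-1* (SE 0.10, adjusted p = 0.024).

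Both calls were lost when single samples were left out. The adjusted p of *sod-4* was 0.0674 and 0.0734 without replicate 2 and without replicate 3 of the cleavage group. That of *ctl-1* was 0.0944, 0.0685 and 0.0841 without cleavage replicates 1, 2 and 3, and 0.0577 without TEV control replicate 3. Markers moved with the groups. In summed TPM, the 5 pharynx genes (3 called higher) were at 634 to 875 after cleavage of both and 360 to 425 in the TEV control. The 8 germline genes (3 called lower) were at 43.3 to 61.2 after cleavage of both and 56.9 to 102 in the TEV control, and the 8 neuronal genes (3 called higher) at 785 to 1032 after cleavage of both and 496 to 775.3 in the TEV control. Of 7 epidermal markers tested 2 were called lower (*dpy-5* -2.65 and *rol-6* -2.18 on the log2 scale), and all 8 summed to 3496 to 4707 TPM after cleavage of both and 3295 to 5976 TPM in the TEV control. Of 8 intestinal markers 1 was called lower (3363 to 4177 TPM after cleavage of both and 3447 to 4544 TPM in the TEV control), and of 6 body muscle markers 1 was called higher (2368 to 3250 TPM after cleavage of both and 1755 to 2511 TPM in the TEV control). No marker found of these 6 lists was at 0, and their part in the results was not tested.

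*ctl-2* was close to *ctl-1* in size but was not called by edgeR, at 143, 167 and 170 CPM after cleavage of SCC-1 and COH-1, against 186, 211 and 220 CPM in the TEV control. Its log2 fold change was -0.37 (SE 0.11, adjusted p = 0.0585). DESeq2 called it (adjusted p = 0.0286, beside 26.7% of all genes), as did edgeR with all groups of the batch (0.0392, beside 22.45%). The 3 catalases summed had -0.39 (SE 0.11, edgeR adjusted p = 0.0476). *ctl-3*, with few reads, had 6.26, 6.63 and 6.93 CPM after cleavage of both and 6.15, 5.95 and 4.93 CPM in the TEV control without overlap (log2 fold change 0.21, adjusted p = 0.326). *sod-3* had 15.9, 18.9 and 10.2 CPM after cleavage of both and 11.1, 5.44 and 11.5 CPM in the TEV control, with overlapping groups (log2 fold change 0.67, adjusted p = 0.198). *sod-1* (0.16) and *sod-2* (-0.21) did not pass the test either. The median of the 7 genes tested was 0.16, beside 0.01 over all genes.

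After COH-1 cleavage alone none of the 7 genes tested was called by edgeR or by DESeq2. By edgeR 0.00719% of 13901 genes were called (0.0647% with a replicate block), and by DESeq2 0.864% of all genes. The paper, with DESeq2 on its own alignment and without genes that oscillate in development, reported many more changed genes in both directions. The cause of this gap was not tested. At an unadjusted p under 0.05 by edgeR, 1 of the 7 genes was higher, beside 872 of all genes in either direction. That gene was *sod-4*, with 20.2, 22.4 and 22.8 CPM after COH-1 cleavage and 17.0, 16.2 and 19.4 CPM in the TEV control (log2 fold change 0.32, SE 0.12, adjusted p = 0.763). *ctl-1* had 117, 120 and 120 CPM after COH-1 cleavage and 128, 140 and 152 CPM in the TEV control (-0.23, SE 0.11, adjusted p = 0.803). *ctl-2* had 165, 180 and 174 CPM after COH-1 cleavage and 186, 211 and 220 CPM in the TEV control (-0.25, SE 0.11, adjusted p = 0.799). The groups of these 3 genes did not overlap, which was not counted over all genes, and the differences did not pass the test.

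The direct comparison of cleavage of both kleisins with COH-1 cleavage alone called none of the 7 genes, beside 10.2% of 14049 genes. At an unadjusted p under 0.05 by edgeR, 2 were higher and 1 lower, beside 3772 of all genes in either direction. DESeq2 called 1 of the 7, *sod-3*, beside 15.1% of all genes. *sod-3* had 15.9, 18.9 and 10.2 CPM with both cleaved and 7.79, 7.06 and 9.97 CPM with COH-1 cleaved (log2 fold change 0.85, SE 0.24, adjusted p = 0.0669), and the groups did not overlap. *sod-4* (0.25, SE 0.11, adjusted p = 0.175) and *ctl-1* (-0.23, SE 0.09, adjusted p = 0.157) did not pass the test. Their groups did not overlap, which was not counted over all genes.

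SCC-1 cleavage alone changed 1 of the 8 genes, *sod-1*, beside 29.0% of 14410 genes. *sod-1* had 207, 217, 193 and 214 CPM after SCC-1 cleavage, against 174, 166, 156 and 164 CPM in the TEV control. The groups did not overlap, and *sod-1* rose 1.24-fold (log2 fold change 0.31, SE 0.06, adjusted p = 0.00603). When all groups of batch 1 shared 1 estimate of the spread, which includes KLE-2 cleavage replicate 3, the adjusted p was 0.211. *sod-4* had 23.9, 25.5, 21.2 and 24.1 CPM after SCC-1 cleavage and 22.1, 22.0, 19.0 and 18.3 CPM in the TEV control, with overlapping groups (log2 fold change 0.20, adjusted p = 0.118). *sod-3* (0.19) and *ctl-1* (-0.20) did not pass the test. Of 7 epidermal markers tested, 1 was called higher and 4 lower. All 8 summed to 1109 to 1610 TPM after SCC-1 cleavage and 1460 to 2119 TPM in the TEV control. Of 5 pharynx genes 2 were called higher (211 to 324 TPM after SCC-1 cleavage and 182 to 218 TPM in the TEV control), and of 8 neuronal genes 3 were called higher and 1 lower (475 to 534 TPM after SCC-1 cleavage and 407 to 426 TPM in the TEV control). Of 8 intestinal genes 2 were called lower, with sums of 2354 to 3097 TPM after SCC-1 cleavage and 2255 to 2466 TPM in the TEV control. The part of these markers in the results was not tested.

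DPY-26 and SCC-1 cleavage, from the same batch, were compared directly, and edgeR called 2 of the 8 genes, beside 34.2% of 14381 genes. *sod-4* was higher after DPY-26 than after SCC-1 cleavage, by 0.59 on the log2 scale (SE 0.15, adjusted p = 0.0142). *sod-1* was lower after DPY-26 than after SCC-1 cleavage, at 163, 183, 150 and 144 CPM after DPY-26 cleavage and 207, 217, 193 and 214 CPM after SCC-1 cleavage (log2 fold change -0.35, SE 0.09, adjusted p = 0.0154, and 0.125 with all groups of the batch). Neither gene's groups overlapped. *ctl-3* had a log2 fold change of 0.61 (SE 0.22, edgeR adjusted p = 0.0589, 0.035 without DPY-26 cleavage replicate 4). DESeq2 called it (adjusted p = 0.0278), beside 38.8% of all genes.

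KLE-2, the kleisin of condensin II, was cleaved in the same batch. None of the 8 genes was called by edgeR or DESeq2, beside 1.17% of 14331 genes by edgeR and 7.0% of all genes by DESeq2. None of the 8 differed at an unadjusted p under 0.05 by edgeR, beside 2172 of all genes. KLE-2 cleavage replicate 3 stood apart, with 337 CPM of *sod-1*, 309 of *ctl-2*, 212 of *ctl-1* and 145 of *sod-2*, while the other 3 KLE-2 samples held 179 to 205, 144 to 185, 110 to 148 and 90.3 to 96.1 CPM of these genes. In TPM the other 3 held 202 to 217, 45.0 to 58.2, 38.8 to 50.9 and 81.2 to 85.9. Replicate 3 held 276, 86.4, 58.2 and 105 TPM, which is nearer to the others than in CPM. In CPM, the TMM factor of replicate 3 scales all genes of this sample. The log2 fold change of *sod-1* was 0.45 (SE 0.20, adjusted p = 0.338) with and 0.20 (SE 0.08, adjusted p = 0.179) without this sample, its groups not overlapping, and that of *ctl-2* was 0.33 with and 0.04 without it. *ctl-1* likewise had 0.24 with and 0.02 without it, and *sod-4* 0.16 with and 0.05 without it.

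Set directly against KLE-2 cleavage, DPY-26 cleavage differed in none of the 8 genes by edgeR or DESeq2. By edgeR 6.88% of 14301 genes were called, and by DESeq2 16.4% of all genes. At an unadjusted p under 0.05 by edgeR, 1 was higher and 1 lower, beside 3593 of all genes in either direction. *sod-4* was at 0.61 on the log2 scale (SE 0.20, adjusted p = 0.0989), and it was called without KLE-2 cleavage replicate 3 (0.73, adjusted p = 0.0392). *ctl-2* (-0.64, SE 0.27, adjusted p = 0.181) was at -0.32 without that sample, and *sod-3* was at 0.85 (adjusted p = 0.219). SCC-1 against KLE-2 cleavage gave 0 calls among the 8 genes and 0% of 14345 genes by edgeR, 0 of the 8 by DESeq2, and 0 of the 8 and 830 of all genes at an unadjusted p under 0.05. DESeq2 called 0.893% of all genes there.

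The 2 controls of batch 3 differ in TIR1, and there *sod-3* fell to 0.522 of its level without TIR1. It had 3.68, 3.58 and 3.64 CPM in the TEV TIR1 auxin control, against 6.55, 6.43 and 8.03 CPM in the TEV auxin control. The groups did not overlap, the log2 fold change was -0.94 (SE 0.15, adjusted p = 0.00376), and 14.4% of 13847 genes were called. Both groups received auxin, so TIR1, its marker mRuby or its insertion were what differed in genotype.

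The catalases *ctl-1* and *ctl-2* and the dismutase *sod-1* also lay lower with TIR1, without passing the test. *ctl-1* had 106, 89.0 and 99.1 CPM in the TEV TIR1 auxin control and 149, 158 and 116 CPM in the TEV auxin control (log2 fold change -0.52, SE 0.15, adjusted p = 0.0525). *ctl-2* had 163, 131 and 146 CPM in the TEV TIR1 auxin control and 216, 220 and 176 CPM in the TEV auxin control (-0.47, SE 0.14, adjusted p = 0.0638). *sod-1* had 131, 152 and 144 CPM in the TEV TIR1 auxin control and 170, 221 and 183 CPM in the TEV auxin control (-0.42, SE 0.14, adjusted p = 0.093). The groups of these 3 genes did not overlap, which was not counted over all genes. DESeq2 called all 3, beside 16.9% of all genes, and so did edgeR with all groups of the batch, beside 17.9%. By edgeR, *ctl-1* and *ctl-2* were called without TEV TIR1 auxin replicate 1 (adjusted p = 0.0428 and 0.0397) or without TEV auxin replicate 3 (0.0208 and 0.0415). The median of the 7 genes tested was -0.42, beside 0.04 over all genes. Of 7 epidermal markers tested, 1 was called higher and 4 lower, with sums of 2644 to 4082 TPM in the TEV TIR1 auxin control and 2924 to 3236 TPM in the TEV auxin control, and its part in the result was not tested.

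**Figure D4:**
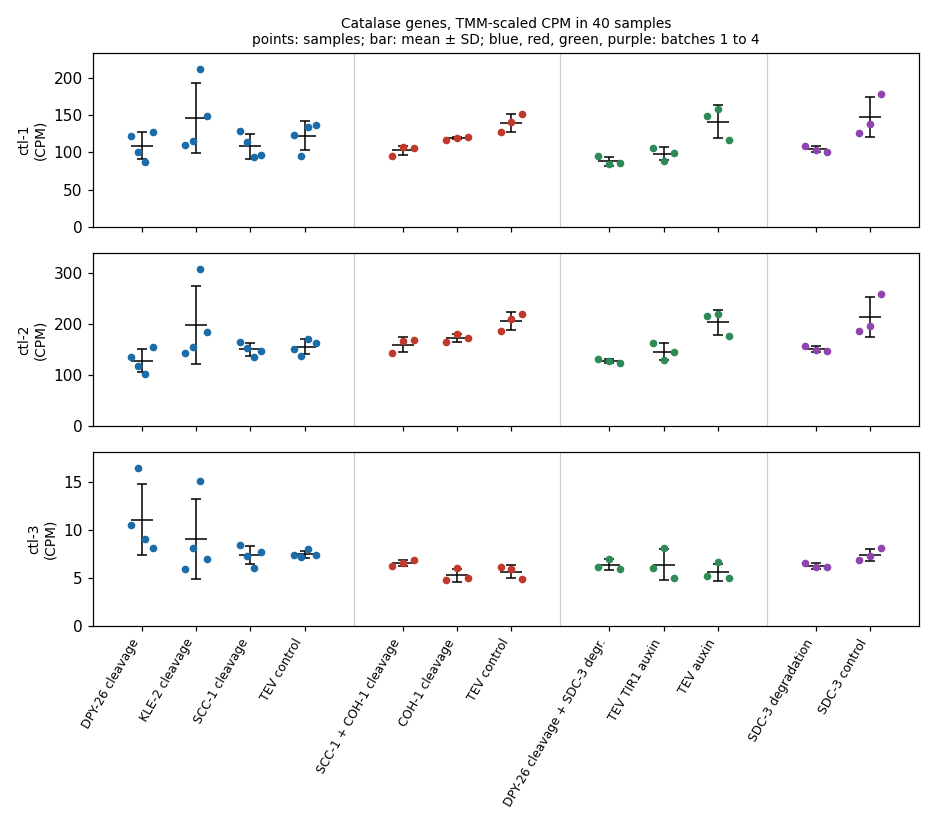
CPM scaled with TMM factors of the 3 catalase genes (1 panel each, axes from 0) in 12 groups, with points for samples and bars for the mean ± SD. *ctl-1* (84.0 to 212 CPM) and *ctl-2* (102 to 309 CPM) are both highest in KLE-2 cleavage replicate 3, and *ctl-3*, at 4.83 to 16.5 CPM, is highest after DPY-26 cleavage and in KLE-2 cleavage replicate 3.

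*sod-3* also differed between the controls. The TEV control, the same genotype and treatment in both batches, had 11.1, 5.44 and 11.5 CPM in batch 2 and 3.05, 3.64, 3.70 and 2.91 CPM in batch 1, a difference between batches that was not tested. With auxin, the same strain had 6.43 to 8.03 CPM in batch 3, where auxin and batch cannot be told apart. Of the other genes, *sod-4* had 17.5 ± 1.70 CPM in batch 2 (SD, n = 3) and 20.4 ± 1.96 in batch 1 (SD, n = 4), and *ctl-2* had 206 ± 17.8 and 156 ± 14.8 CPM.

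*sod-5* had few reads. It held 0 to 35 reads per sample (median 5.5) and 2 libraries at 0, 1 of SDC-3 degradation and 1 of DPY-26 cleavage with SDC-3 degradation. A count of 0 allows up to 3 reads, or 0.0875 to 0.147 CPM in the SDC-3 degradation libraries and 0.0591 to 0.127 CPM in those of DPY-26 cleavage with SDC-3 degradation. It passed the filter of 10 reads only in the comparisons that use batch 1, where it had 0.221, 0.454, 0.725 and 0.189 CPM after DPY-26 cleavage and 0.194, 0.275, 0.356 and 0.218 CPM in the TEV control. These groups overlapped (log2 fold change 0.58, SE 0.44, adjusted p = 0.364). *sod-2*, in contrast to *sod-3*, was called in no comparison, and its log2 fold change against a control lay between -0.31 and 0.12.

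*sod-4* is annotated with 2 isoforms, F55H2.1a and F55H2.1b, of 2 transcripts each. After DPY-26 cleavage, isoform a had 33.1, 37.0, 37.2 and 25.7 TPM, against 19.1, 20.9, 19.3 and 17.9 TPM in the TEV control. Isoform b had 16.2, 21.9, 12.7 and 15.5 TPM after DPY-26 cleavage, against 14, 10.5, 8.27 and 8.81 TPM in the TEV control. The groups were separate for isoform a and overlapped for isoform b. With SCC-1 and COH-1 cleaved, isoform b had 28.4, 28.2 and 30.2 TPM, against 19.7, 13.9 and 19.2 TPM in the TEV control, and isoform a had 26.4, 13.7 and 14.4 TPM, against 16, 5.48 and 8.32 TPM.

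The share of isoform b in the TPM of *sod-4* followed the batch. It was 23.2 to 44.3% in the 16 libraries of batch 1 and 48.9 to 74.6% in the libraries of batches 2 to 4, with no overlap. It was 30.0 to 42.4% in the TEV control of batch 1 and 55.2 to 71.8% in that of batch 2. It also went with the replicate number within batches 2 and 3, where replicate 1 had the lowest share in each group. In the TEV control of batch 2, replicates 1 to 3 had 55.2, 71.8 and 69.8%. The TPM of *ctl-1* was highest in replicate 1 of each of these groups (78.0, 50.8 and 61.5 TPM in that control). The main fits took no account of the replicate number, and its part was not tested. The transcripts of *sod-2* followed the batch too. F10D11.1.4 held 0 to 0.019% of the mean *sod-2* TPM in the groups of batch 1 and 98.9 to 100% in those of batches 2 to 4. These values are estimates of how reads divide between transcripts that share sequence, and they were not tested. Isoform a held 95.9% of the reads of *sod-1* and 100% of those of *ctl-3*.

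**Figure D5:**
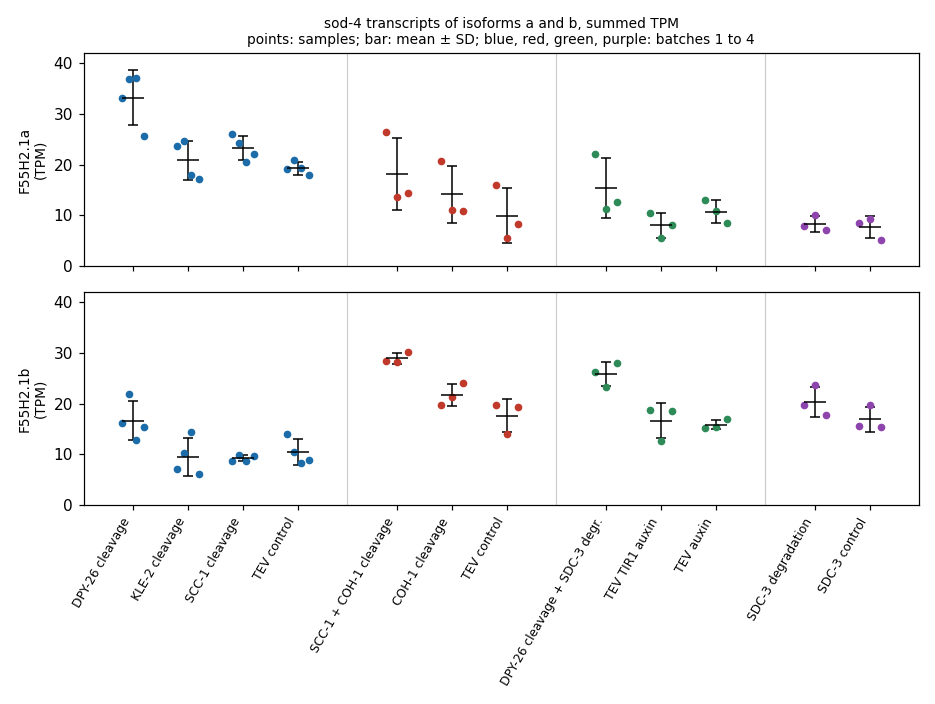
TPM of the 2 isoforms of *sod-4* (1 panel each, each the sum of 2 transcripts, same axis from 0) in 12 groups, with points for samples and bars for the mean ± SD. Isoform a is highest after DPY-26 cleavage (25.7 to 37.2 TPM), and isoform b holds 23.2 to 44.3% of the *sod-4* TPM in batch 1 and 48.9 to 74.6% in batches 2 to 4.

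The genes most alike to each member were found by Pearson's r of log2 CPM after removing batch means, over 40 samples and 11907 genes with at least 10 reads in each sample. These samples share libraries and batches, and the values are descriptions. *ctl-1* and *ctl-2* were each other's closest gene (r = 0.95), and the ratio of *ctl-2* to *ctl-1* stayed between 1.12 and 1.60 in all 40 samples. *kat-1*, a thiolase, was among the 3 genes closest to *ctl-1* (0.84), and *pdhb-1* (0.90) and *mdh-2* (0.89), of mitochondrial carbon metabolism, were closest to *ctl-2* after *ctl-1*. *sod-2* was most like *ndub-2* (0.94), *ndua-12* (0.94) and *ndub-11* (0.93), subunits of respiratory complex I. *sod-1* was most like the proton pump genes *vha-14* and *vha-9* (0.91 each) and *mev-1* (0.91), a subunit of respiratory complex II. The 3 genes closest to autosomal *sod-4* were X-linked, F54B11.5 (0.87), F52E4.5 (0.85) and *nlp-49* (0.84). Only batch means were removed, so differences between the groups of a batch enter these values. X-linked genes had a median log2 fold change of 0.61 after DPY-26 cleavage and 0.58 with SDC-3 degradation added, where *sod-4* was called higher too. The part of this in r was not tested. *sod-3* had no gene above 0.67 (F16C3.3), and *ctl-3* was nearest to *oaz-1* (0.76).

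Other genes of the pathway were counted in fixed lists. Their counts stand beside the shares of all genes called, 27.5% after DPY-26 cleavage, 29.0% after SCC-1 cleavage, 21.3% with SCC-1 and COH-1 cleaved, 14.7% after DPY-26 cleavage with SDC-3 degradation and 14.4% in the TIR1 comparison. Enzymes that reduce peroxides and thiols beside catalase gave 3 higher and 6 lower of 24 tested after DPY-26 cleavage, 4 and 5 of 25 after SCC-1 cleavage, 2 and 1 of 25 with SCC-1 and COH-1 cleaved, and 2 and 3 of 25 after DPY-26 cleavage with SDC-3 degradation. *gpx-3*, a glutathione peroxidase, rose in all 4 comparisons (log2 fold change 1.21, 2.09, 1.42 and 1.12, in that order), and *gpx-5* rose in 3 of them (0.61 after DPY-26 cleavage, 0.88 after SCC-1 cleavage and 1.37 after DPY-26 cleavage with SDC-3 degradation). *trx-3*, a thioredoxin, fell by 2.83 after SCC-1 cleavage, and *msra-1*, a methionine sulfoxide reductase, fell by 1.73 after DPY-26 cleavage, on the log2 scale. The list medians lay between -0.19 and 0.10 in the 8 comparisons with a control.

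Genes of peroxisome import and peroxisomal fatty acid oxidation, the compartment of CTL-2, were mostly lower after SCC-1 cleavage, with 0 of 19 called higher and 14 lower, beside 29.0% of all genes called (median log2 fold change -0.42, beside 0.02 over all genes). They included *prx-2* (-0.77), *daf-22* (-0.73), *prx-6* (-0.64) and *dhs-28* (-0.54), whereas *ctl-2* was at -0.07 there. After DPY-26 cleavage 0 were called higher and 6 lower, and with SCC-1 and COH-1 cleaved 0 and 5, including *pmp-4* (-1.02) and *daf-22* (-0.68), beside 27.5% and 21.3% of all genes called. After DPY-26 cleavage with SDC-3 degradation 4 were called higher and 2 lower of 19, among them *prx-3* (0.77), *prx-12* (0.56), *prx-1* (0.51) and *pmp-5* (-0.87). The list that makes superoxide or peroxide, of NADPH oxidases and acyl-CoA oxidases, had 1 called higher and 5 lower of 10 after SCC-1 cleavage and 0 and 5 of 11 with SCC-1 and COH-1 cleaved, among them *acox-1.1* (-0.61 after SCC-1 cleavage and -0.57 with both cleaved) and *acox-3* (-0.82 and -0.88).

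Among regulators of oxidative stress genes, *daf-16* rose after SCC-1 cleavage (log2 fold change 0.39, adjusted p = 0.0184) and with SCC-1 and COH-1 cleaved (0.82, adjusted p = 0.0103), where 2 and 1 of 23 regulators were called higher and 1 and 0 lower. *sod-3*, its known target, passed the test in neither comparison. After DPY-26 cleavage, where 27.5% of all genes were called, 5 of 23 were called higher, among them *akt-2* (0.72), *pdk-1* (0.71) and *pqm-1* (0.58), and 3 lower. After DPY-26 cleavage with SDC-3 degradation, with 14.7% of all genes called, 6 were called higher and 0 lower, led by *sgk-1* (0.87). Other DAF-16 and SKN-1 targets gave 3 higher and 0 lower of 14 after SCC-1 cleavage, with *mtl-1*, a metallothionein, at 1.63 and *hil-1*, a linker histone, at 1.62. They gave 3 higher and 1 lower of 13 with SCC-1 and COH-1 cleaved (*fat-7* 2.1, *mtl-1* 1.71) and 3 higher and 2 lower of 14 after DPY-26 cleavage (*dod-3* 1.41, *gst-10* -1.1).

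The genes that supply copper to SOD-1 and SOD-4 and heme to catalase were counted last. After SCC-1 cleavage 0 were called higher and 2 lower of 10, the copper chaperone *cuc-1* (-1.1) and the heme transporter *hrg-1* (-0.58). After DPY-26 cleavage 2 were called higher and 1 lower of 10, *hrg-3* (1.17), *mrp-5* (0.42) and *hrg-6* (-1.55). After DPY-26 cleavage with SDC-3 degradation 1 was called higher and 2 lower of 9, *mrp-5* (0.47), *hrg-6* (-0.96) and *hrg-7* (-0.84). In the TIR1 comparison *hrg-1* fell by 1.09 and *hrg-2* rose by 0.84 on the log2 scale, the only calls among 9.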

How the data were processed

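Per the labels, RNA was extracted from entire L3 larvae and libraries were made with a stranded mRNA kit. The authors deposited, for each lane, the estimated count of reads and the TPM of 42938 transcripts, and the submitters' processing notes name Salmon 1.5.2, cutadapt 2.5 and STAR 2.7.9a. The transcriptome release is not given in the sources used here. Estimated counts of 82 lane files were summed over lanes and transcripts (Ensembl release 115, WBcel235) and rounded. By name 30905 transcripts matched, 11992 more through the sequence name, and 41 had no gene (at most 0.0128% of a library's reads, left out).

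Genes with at least 10 reads in 4 of 8, 3 of 6 or 7 of 14 samples were tested with edgeR 4.0.16 (TMM, quasi-likelihood, Benjamini-Hochberg over all genes) on the samples of the groups compared, and called at an adjusted p under 0.05. The study's methods used DESeq2, which served as an alternative (1.42.0), as did limma 3.58.1 on log2(TPM + 0.5), RLE normalization, no filter, all groups of a batch, a replicate block, summed catalases, the 2 usual of 4 files of TEV TIR1 auxin replicate 1, and leaving out each replicate (R 4.3.3, Python 3.11.15, numpy 2.4.6, pandas 2.3.3, matplotlib 3.10.9). Fits were tested on simulated data. TPM was averaged over lanes. A floor of 3 reads covers counting error only.

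Same-numbered samples deviated together in every pair (r over 0.1) for SCC-1 cleavage (lowest 0.10), COH-1 cleavage (0.47) and SCC-1 with COH-1 against COH-1 cleavage (0.25), where the pairing comes from the numbers in the titles, and for no other of 12 comparisons. For SCC-1 cleavage this pairing is uncertain, since the files of replicates 3 and 4 carry the numbers 4 and 5 and not every sample matched its own number best. The members and lists were chosen with earlier results of these data known. All 8 members are named in every comparison, and of each other list up to the 4 called genes with the largest change.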

Additional observations from a re-analysis of the deposited data

Results flagged for a closer look

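In the group of 4 KLE-2 cleavage samples, replicate 3 was far above the other 3 in 2 genes in CPM scaled with TMM factors. It had 337 CPM of *sod-1*, where the others had 179 to 205 CPM, and 145 CPM of *sod-2*, where the others had 90.3 to 96.1 CPM. Of 32 sets of 4 samples looked at, 2 met this criterion, and chance gives about 1 in 20. In TPM replicate 3 had 276 of *sod-1*, where the others had 202 to 217. Of *sod-2* it had 105 TPM, where the others had 81.2 to 85.9. In reads, replicate 3 held 3603 of *sod-2* in a library of 36617778, and replicate 1 held 4614 in one of 49318878. Before scaling, *sod-2* was thus close in these 2 samples, and the TMM factor of replicate 3 sets them apart in CPM. Both flags come from this 1 library, and its TMM factor scales all its genes.

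Under the same control, DPY-26 and SCC-1 cleavage differed in 2 genes by a direct test. *sod-4* was higher after DPY-26 cleavage by 0.59 on the log2 scale (edgeR adjusted p = 0.0142), above in 4 of 4 samples. *sod-1* was lower after DPY-26 cleavage (log2 fold change -0.35, edgeR adjusted p = 0.0154), below in 4 of 4 samples.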

How the results depend on the processing

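Of 98 pairs of a gene and a comparison, 8 were called, and none of these 8 changed sign under any alternative. Summed catalases aside, the sign changed under some alternative in 24 other pairs, all with a log2 fold change of at most 0.29 in size. With RLE normalization, no filter or 2 files of TEV TIR1 auxin replicate 1, the count of genes called was unchanged in each comparison. DESeq2 called 3 of the 8 genes in place of 1 after DPY-26 cleavage, 3 in place of 2 with SCC-1 and COH-1 cleaved (adding *ctl-2*) and for DPY-26 against SCC-1 cleavage (adding *ctl-3*), 4 in place of 1 with TIR1, and 2, 1 and 2 in place of 0 after SDC-3 degradation, for SCC-1 with COH-1 against COH-1 cleavage, and for DPY-26 cleavage minus SDC-3 degradation. DESeq2 also called a larger share of all genes in each of these comparisons. With all groups of a batch in the fit, the count was 0 in place of 1 after SCC-1 cleavage and 1 in place of 2 for DPY-26 against SCC-1 cleavage. It was 3 in place of 2 with SCC-1 and COH-1 cleaved (adding *ctl-2*), beside 22.45% of all genes in place of 21.3%. For DPY-26 against KLE-2 cleavage it was 3 in place of 0, beside 21.95% in place of 6.88%. With TIR1 it was 4 in place of 1, beside 17.9% in place of 14.4%. limma on TPM called 0 with SCC-1 and COH-1 cleaved, 0 after DPY-26 cleavage with SDC-3 degradation, 0 with TIR1 and 1 for DPY-26 against KLE-2 cleavage, and it moved the median over all genes to 0.19 with SCC-1 and COH-1 cleaved. The cause of these differences was not tested. *ctl-3* reversed when the catalases were summed, since the sum is mostly *ctl-1* and *ctl-2*, to -0.21 after DPY-26 cleavage, -0.39 with SCC-1 and COH-1 cleaved and -0.071 for DPY-26 against SCC-1 cleavage.

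Leaving out 1 sample at a time, the count ranged from 1 to 3 after DPY-26 cleavage, from 0 to 2 with SCC-1 and COH-1 cleaved, from 0 to 1 after DPY-26 cleavage with SDC-3 degradation, from 1 to 3 with TIR1, from 0 to 1 for DPY-26 against KLE-2 cleavage and from 0 to 2 for DPY-26 cleavage minus SDC-3 degradation. A replicate block changed no call of these genes where the numbers pair the samples. Elsewhere some pairs did not. With the block the count there was 4 in place of 1 with TIR1, beside 20.8% of all genes. It was 1 in place of 0 for DPY-26 cleavage minus SDC-3 degradation (*sod-4*, edgeR adjusted p = 0.0436), beside 11.6%. With SCC-1 and COH-1 cleaved it was 3 in place of 2, adding *ctl-2* (0.0209), beside 27.6%. Every sample matched its own number best with SCC-1 and COH-1 cleaved and after DPY-26 cleavage with SDC-3 degradation. The lowest r of a pair was 0.080 and 0.078 there, and the highest 0.57 and 0.67, in that order. The samples of these comparisons may thus be paired, and the main fits took no account of pairing.

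The share of all genes called moved by over 1.5 times in several fits. With DESeq2 it was 7.0% in place of 1.17% after KLE-2 cleavage, 11.7% in place of 1.27% after SDC-3 degradation, 0.864% in place of 0.00719% after COH-1 cleavage and 16.4% in place of 6.88% for DPY-26 against KLE-2 cleavage. With all groups of batch 1 it was 15.3% in place of 27.5% after DPY-26 cleavage and 18% in place of 29.0% after SCC-1 cleavage. limma on TPM gave 7.42% in place of 21.3% with SCC-1 and COH-1 cleaved, 2.91% in place of 14.7% after DPY-26 cleavage with SDC-3 degradation and 7.30% in place of 14.4% with TIR1. A replicate block gave 28.3% in place of 14.7% after DPY-26 cleavage with SDC-3 degradation, 7.17% in place of 1.27% after SDC-3 degradation, 0.209% in place of 1.17% after KLE-2 cleavage and 3.78% in place of 6.88% for DPY-26 against KLE-2 cleavage. Leaving out 1 sample at a time, the share ranged from 16.4 to 30.9% after DPY-26 cleavage, 0 to 2.32% after KLE-2 cleavage, 5.98 to 23.2% with SCC-1 and COH-1 cleaved, 0 to 9.11% after SDC-3 degradation, 6.10 to 14.7% after DPY-26 cleavage with SDC-3 degradation, 8.82 to 15.5% with TIR1, 0.0704 to 13.4% for DPY-26 against KLE-2 cleavage, 0.224 to 17.6% for SCC-1 with COH-1 against COH-1 cleavage and 4.04 to 14.9% for DPY-26 cleavage minus SDC-3 degradation. *sod-5*, with 35 reads or fewer per library, was tested only where batch 1 was used.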
